A study of Mus musculus with 12 samples.

Results

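De novo lipogenesis, the pathway by which cells build fatty acids from acetyl-CoA, was followed through 10 genes chosen by name: Srebf1, Mlxipl, Acly, Me1, Acaca, Acacb, Fasn, Scd1, Elovl6 and Thrsp. All 10 were found among the 23042 genes of each expression table, each as an entry of its own. The 2 tables hold 12 RNA-seq libraries, from epididymal white adipose tissue (WAT) and heart ventricles of WT and MED13cTg mice, and each group has 3 mice. MED13cTg mice carry a cardiac transgene that overexpresses MED13, a subunit of the kinase module of the Mediator complex, and WT mice were their littermates. All were C57BL/6 males, 6 weeks old by the labels, kept on normal chow and sampled fed ad libitum in the late afternoon. The sources used here do not name the promoter that drives the transgene, and they do not say whether WAT and ventricle libraries with the same number came from the same mouse. Values are in FPKM, fragments of a gene scaled by its transcript length and by the mapped fragments of the library, so levels of different genes can be set side by side per length.

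In lipogenesis, citrate exported from mitochondria is split by ATP citrate lyase (Acly) to give cytosolic acetyl-CoA, and malic enzyme 1 (Me1) supplies NADPH. Acetyl-CoA carboxylase 1 (Acaca) makes the malonyl-CoA from which fatty acid synthase (Fasn) builds palmitate, whereas acetyl-CoA carboxylase 2 (Acacb) sits at the mitochondrial outer membrane and makes malonyl-CoA that restrains carnitine palmitoyltransferase 1 and so fatty acid oxidation. Elovl6 elongates palmitate, and Scd1 introduces the double bond of monounsaturated fatty acids. Srebf1 (SREBP-1, responsive to insulin and sterols) and Mlxipl (ChREBP, responsive to glucose) are transcription factors that drive these genes, and Thrsp (Spot 14) is a lipogenic protein controlled by thyroid hormone and carbohydrate. Adipose tissue and liver are classical sites of the pathway, while the heart takes up most of its fatty acids from the blood.

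Of the 10 genes, 4 lie on mouse chromosome 11. In mm9 coordinates the tables place Fasn at chr11:120667271-120685861, Acaca at chr11:84008939-84215153, Acly at chr11:100337665-100389314 and Srebf1 at chr11:59918514-60036046. The others are Acacb at chr5:114596792-114700767, Mlxipl at chr5:135582760-135614252, Elovl6 at chr3:129235303-129341411, Me1 at chr9:86474969-86595286, Thrsp at chr7:104561466-104569417 and Scd1 at chr19:44468939-44482199. The upstream sequence of 3 of them is printed as examples from 2 of the 3 groups formed across the WAT libraries below. Fasn and Srebf1 were low in 1 MED13cTg mouse and high in another, and Acly was low in both. Each is the 250 bases before a RefSeq transcript start on the minus strand in GRCm38.p6, written 5′ to 3′ in the direction of transcription. Capitals mark CCAAT boxes (CCAAT, bound by NF-Y) in Fasn, GC boxes (GGGCGG, bound by SP1) in Acly, and both in Srebf1, found on either strand, where the reverse strand reads ATTGG or CCGCCC. The windows are chr11:120824548-120824797 for Fasn, chr11:100528001-100528250 for Acly and chr11:60210472-60210721 for Srebf1.
Fasn: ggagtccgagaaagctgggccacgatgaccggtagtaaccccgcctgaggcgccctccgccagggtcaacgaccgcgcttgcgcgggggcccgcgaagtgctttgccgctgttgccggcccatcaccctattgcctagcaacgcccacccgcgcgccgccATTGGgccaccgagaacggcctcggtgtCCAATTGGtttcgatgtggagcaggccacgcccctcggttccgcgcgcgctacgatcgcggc
Acly: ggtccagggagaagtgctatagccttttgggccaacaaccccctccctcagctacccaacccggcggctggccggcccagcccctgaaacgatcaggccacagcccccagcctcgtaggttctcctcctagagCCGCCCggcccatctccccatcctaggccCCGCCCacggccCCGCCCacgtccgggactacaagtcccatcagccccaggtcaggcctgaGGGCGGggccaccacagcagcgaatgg
Srebf1: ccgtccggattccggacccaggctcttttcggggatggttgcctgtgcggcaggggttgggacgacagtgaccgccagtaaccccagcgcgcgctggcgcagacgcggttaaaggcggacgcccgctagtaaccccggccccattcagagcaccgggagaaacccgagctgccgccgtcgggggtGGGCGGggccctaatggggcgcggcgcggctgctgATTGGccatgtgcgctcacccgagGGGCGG

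The Fasn window held 3 CCAAT boxes, of which the last 2 overlap, and no GC box, and the Acly window held 4 GC boxes and no CCAAT box. This Srebf1 start, 1 of several in the annotation, had 1 CCAAT box and 2 GC boxes. Starts of 9 of the 10 genes, 13 in all, were in the RefSeq table; Scd1 was not. A CCAAT box was found at 7 of the 13 starts, against 33.8% of all 32817 promoter windows of this length, and a GC box at 5 of 13, against 32.7%. The sterol response element TCACNCCAC was found at 1 start, an alternative start of Mlxipl, against 1.05% of windows, and the E-box CACGTG also at 1, another start of Mlxipl, against 6.02%. The windows of Acaca, grouped with Fasn below, and of Elovl6, grouped with Acly, held neither a CCAAT box nor a GC box. This covers the listed starts only and leaves out any other start of these genes. The windows of Acacb, Elovl6 and Thrsp and a window of Me1 overlapped annotated exons. The boxes counted here are letter matches in short windows and say nothing of which factors bind.

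Before the lipogenic genes are compared, the libraries need describing. Med13 itself was 11.7 ± 1.26 FPKM in the ventricles of WT mice (SD, n = 3) and 216 ± 42.5 FPKM in those of MED13cTg mice, 18.4-fold higher, and 10.1 ± 0.764 against 9.85 ± 1.75 FPKM in WAT. In WAT, MED13cTg libraries 1 and 2 stood apart from the other 4. Across 14967 genes the rank correlation among WT libraries was 0.958 to 0.972, whereas MED13cTg 1 reached 0.350 to 0.494 with the other 5 libraries and MED13cTg 2 reached at most 0.852. The summed FPKM of 12 mature adipocyte markers, all at 1 FPKM or more in every WAT library, was 13625, 32299 and 22207 in WT 1, 2 and 3 and 1371, 81093 and 17507 in MED13cTg 1, 2 and 3. The sum of 16 epididymis markers was 76936 to 99607 in WT and 12144, 238 and 78012 FPKM in MED13cTg, and that of 7 testicular germ cell markers was 213 to 303 in WT and 13638, 5.83 and 344 FPKM in MED13cTg. The WAT libraries thus held epididymal transcripts in amounts that differed between libraries. Log2 fold changes of the 10 genes and medians of the lists in WAT are given with and without MED13cTg 1 and 2. They stand below or among the limits at the end. With both left out, only MED13cTg 3 remains, so such values rest on a single mouse. In ventricles all pairs of libraries had rank correlations of 0.944 to 0.969, and 8 cardiac myocyte markers summed to 73008 to 81374 in WT and 77278 to 114048 FPKM in MED13cTg. In bulk tissue, fewer cells of a type and less RNA per cell cannot be told apart.

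In WT mice, most of the pathway was expressed at a higher level in WAT than in ventricles. Of the 10 genes, 8 had a higher WT mean in WAT, and the WT ranges of the 2 tissues did not overlap for 7 of these 8. Scd1 showed the widest gap, at 1772 ± 925 FPKM in WAT and 14.2 ± 3.27 FPKM in ventricles (SD, n = 3), a 125-fold difference. Elovl6 was 63.1-fold, Acaca 13.6-fold, Fasn 12.7-fold, Acly 12.1-fold, Thrsp 7.17-fold and Srebf1 6.05-fold higher in WAT. The 2 tables were estimated separately, so these folds are descriptions and were not tested. Epididymis markers summed to 76936 to 99607 FPKM in the WT WAT libraries, and mature adipocyte markers to 13625 to 32299 FPKM. How much of each WAT level came from fat cells was not tested.

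Acacb was the exception, at 103 ± 7.49 FPKM in WT ventricles and 31.3 ± 16.7 FPKM in WAT, 3.28-fold higher in the heart with no overlap. As a share of the 2 acetyl-CoA carboxylase transcripts, Acacb made up 38.7, 40.8 and 35.1% in the WT WAT libraries and 96.4, 96.4 and 96.9% in the WT ventricle libraries. The heart thus expressed mainly the carboxylase isoform of the mitochondrial membrane. Me1 and Mlxipl overlapped between tissues, with Me1 at 84.5 ± 46.6 FPKM in WAT and 61.5 ± 8.38 FPKM in ventricles and Mlxipl at 15.6 ± 3.26 and 20.3 ± 2.99 FPKM.

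**Figure D1:**
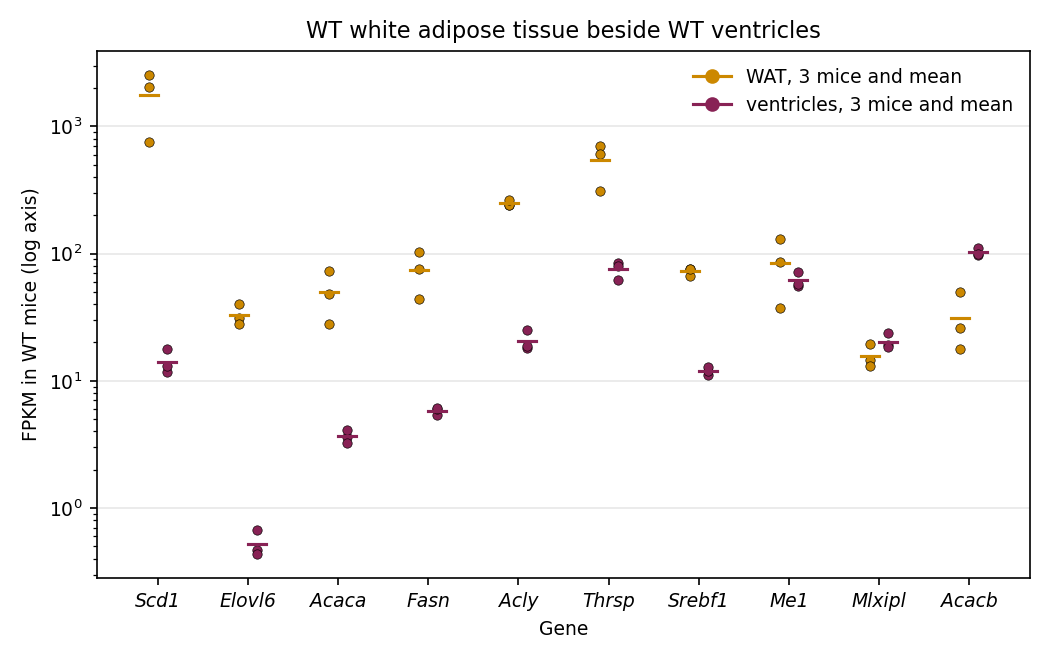
WT expression of the 10 lipogenesis genes in WAT and ventricles, in FPKM on a log axis, with 1 point per library and the mean of 3 mice. Scd1 spans the widest distance, from 1772 FPKM in WAT to 14.2 FPKM in ventricles, and Acacb is the gene whose ventricle libraries lie above its WAT libraries without overlap. The WAT libraries also held epididymal transcripts.

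The WT WAT libraries held epididymal transcripts too. Within them the order of levels, per length, ran from Scd1 through Thrsp, Acly, Me1, Fasn, Srebf1, Acaca, Elovl6 and Acacb to Mlxipl. Thrsp, at 540 ± 203 FPKM, did not overlap Scd1 above it or Acly below it, at 248 ± 12.9 FPKM. From Me1 downwards every gene overlapped the next in this order, so their order is not resolved by 3 mice: Fasn was 74.2 ± 29.0, Srebf1 72.3 ± 4.92, Acaca 49.6 ± 22.1 and Elovl6 33.0 ± 6.06 FPKM. The spread between WT mice differed by gene. The SD was 5.20% of the mean for Acly, 6.80% for Srebf1, 18.4% for Elovl6 and 20.9% for Mlxipl, then 37.5% for Thrsp, 39.1% for Fasn and 44.6% for Acaca, and 52.2 to 55.1% for Scd1, Acacb and Me1. WT 1 was the lowest WT library for 7 of the 10 genes and WT 2 the highest for 7, the order also seen in the adipocyte marker sum.

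In WT ventricles Acacb ranked highest, followed by Thrsp at 75.4 ± 11.8 and Me1 at 61.5 ± 8.38 FPKM, which overlapped each other. Acly and Mlxipl came next and overlapped, at 20.6 ± 3.72 and 20.3 ± 2.99 FPKM, then Scd1 and Srebf1, which also overlapped, at 14.2 ± 3.27 and 11.96 ± 0.771 FPKM. Fasn was 5.83 ± 0.426, Acaca 3.65 ± 0.435 and Elovl6 0.522 ± 0.125 FPKM, none of these overlapping its neighbours. Mature adipocyte markers were uneven in the WT ventricles. Adipoq (adiponectin) was 5.57 to 7.66 FPKM, against 560 to 1330 FPKM in WT WAT, and Plin1 was under 1 FPKM, whereas Fabp4 was 3017 to 3752, Plin4, whose entry is shared with a neighbouring gene, 302 to 340, Lipe 50.7 to 66.6 and Aqp7 17.3 to 21.5 FPKM.

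The genotype comparison in WAT asked whether lipogenic expression in fat differed when MED13 was raised in the heart. No lipogenesis gene passed the test, and the 2 genotypes overlapped for all 10. For every gene but Me1, the ratio of highest to lowest library was larger in MED13cTg than in WT mice. In FPKM the SD of Me1 was also larger in MED13cTg, at 60.8 against 46.6. In limma on log2(FPKM + 1), 0 of 10 genes had an adjusted p under 0.05, against 0.0134% of all genes tested (2 of 14967; 0 with the replicate number as a block), and 0 of 10 had an unadjusted p under 0.05, against 1.25% of all genes. The median log2 fold change of MED13cTg over WT was -0.41 over the 10 genes and 0.01 over all genes. That median was 0.88 without MED13cTg 1, -1.08 without MED13cTg 2 and 0.14 with both left out, so its direction rests on which of these libraries is kept. Ratios of group means gave another count of directions than the log scale, with 8 genes above and 2 below 1, against 4 higher and 6 lower by log2 fold change.

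The transcription factors were a case in point. Srebf1 was 75.1, 66.7 and 75.3 FPKM in WT 1, 2 and 3 and 11.9, 169 and 67.1 FPKM in MED13cTg 1, 2 and 3. The WT mice were close to each other, MED13cTg 3 lay among them, and MED13cTg 1 and 2 lay on opposite sides. Its log2 fold change was -0.46 (SE 0.92, adjusted p = 0.855, limma). Mlxipl was 14.4, 19.3 and 13.1 in WT and 8.99, 51.8 and 16.6 FPKM in MED13cTg, with a log2 fold change of 0.36 (SE 0.63, adjusted p = 0.832, limma). Again MED13cTg 1 was the lowest and MED13cTg 2 the highest of the 6 libraries.

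Acetyl-CoA carboxylase and fatty acid synthase followed the same course. Fasn was 44.2, 102 and 76.2 in WT and 14.8, 233 and 115 FPKM in MED13cTg. Acaca was 28.2, 72.4 and 48.2 in WT and 17.9, 205 and 75.6 FPKM in MED13cTg. Acacb was 17.8, 49.9 and 26.1 in WT and 3.11, 96.6 and 29.2 FPKM in MED13cTg. For all 3 genes MED13cTg 1 fell below and MED13cTg 2 above every WT library, while MED13cTg 3 was above the highest WT library for Fasn and Acaca and within the WT range for Acacb. The log2 fold changes were 0.09 (SE 1.03, 95% interval -2.46 to 2.63) for Fasn, 0.50 (SE 0.91, -1.75 to 2.75) for Acaca and -0.37 (SE 1.18, -3.28 to 2.55) for Acacb, with adjusted p of 0.976, 0.838 and 0.914 by limma. Acacb made up a smaller share of the 2 carboxylases in every MED13cTg library, at 14.8, 32.1 and 27.8%, than in any WT library, where the lowest was 35.1%; this ratio was picked out after its values were seen and was not tested.

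Scd1 and Thrsp, the most abundant of the 10 genes, spanned the widest range. Scd1 was 747, 2545 and 2024 in WT and 72.5, 6174 and 2165 FPKM in MED13cTg, an 85.2-fold distance from the lowest to the highest library. Thrsp was 313, 701 and 608 in WT and 34.8, 1348 and 560 FPKM in MED13cTg. In both, MED13cTg 3 lay within the WT range. The log2 fold changes were -0.66 (SE 1.70, 95% interval -4.86 to 3.55) for Scd1 and -0.77 (SE 1.37, -4.16 to 2.62) for Thrsp, with adjusted p of 0.888 and 0.834 by limma. Intervals this wide leave differences of many fold in either direction undetectable with these 6 mice.

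Acly, Elovl6 and Me1 departed from this pattern. Acly was 239, 241 and 263 in WT and 55.5, 80.3 and 265 FPKM in MED13cTg, and Elovl6 was 31.0, 28.1 and 39.8 in WT and 5.29, 9.59 and 36.2 FPKM in MED13cTg. For both, MED13cTg 1 and 2 were below every WT library although the adipocyte marker sum of MED13cTg 2 was the highest of all, and MED13cTg 3 was close to WT. Their log2 fold changes were -1.22 (SE 0.60, 95% interval -2.70 to 0.26, unadjusted p = 0.0898, adjusted p = 0.738, limma) and -1.31 (SE 0.67, -2.97 to 0.34, unadjusted p = 0.0995, adjusted p = 0.738), and with MED13cTg 1 and 2 both left out they became 0.10 and 0.15. Me1 went the other way, at 37.1, 130 and 86.2 in WT and 142, 240 and 129 FPKM in MED13cTg. Here MED13cTg 1 and 2 were above every WT library, and MED13cTg 3 was just under WT 2. Its log2 fold change was 1.12 (SE 0.53, 95% interval -0.19 to 2.43, unadjusted p = 0.0814, adjusted p = 0.738, limma). It remained above 0 without MED13cTg 1 (1.22) and without MED13cTg 2 (0.84), and it was lowest, 0.62, without WT 1. Without both MED13cTg 1 and 2 it was 0.77, from MED13cTg 3 alone, which lay within the WT range.

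**Figure D2:**
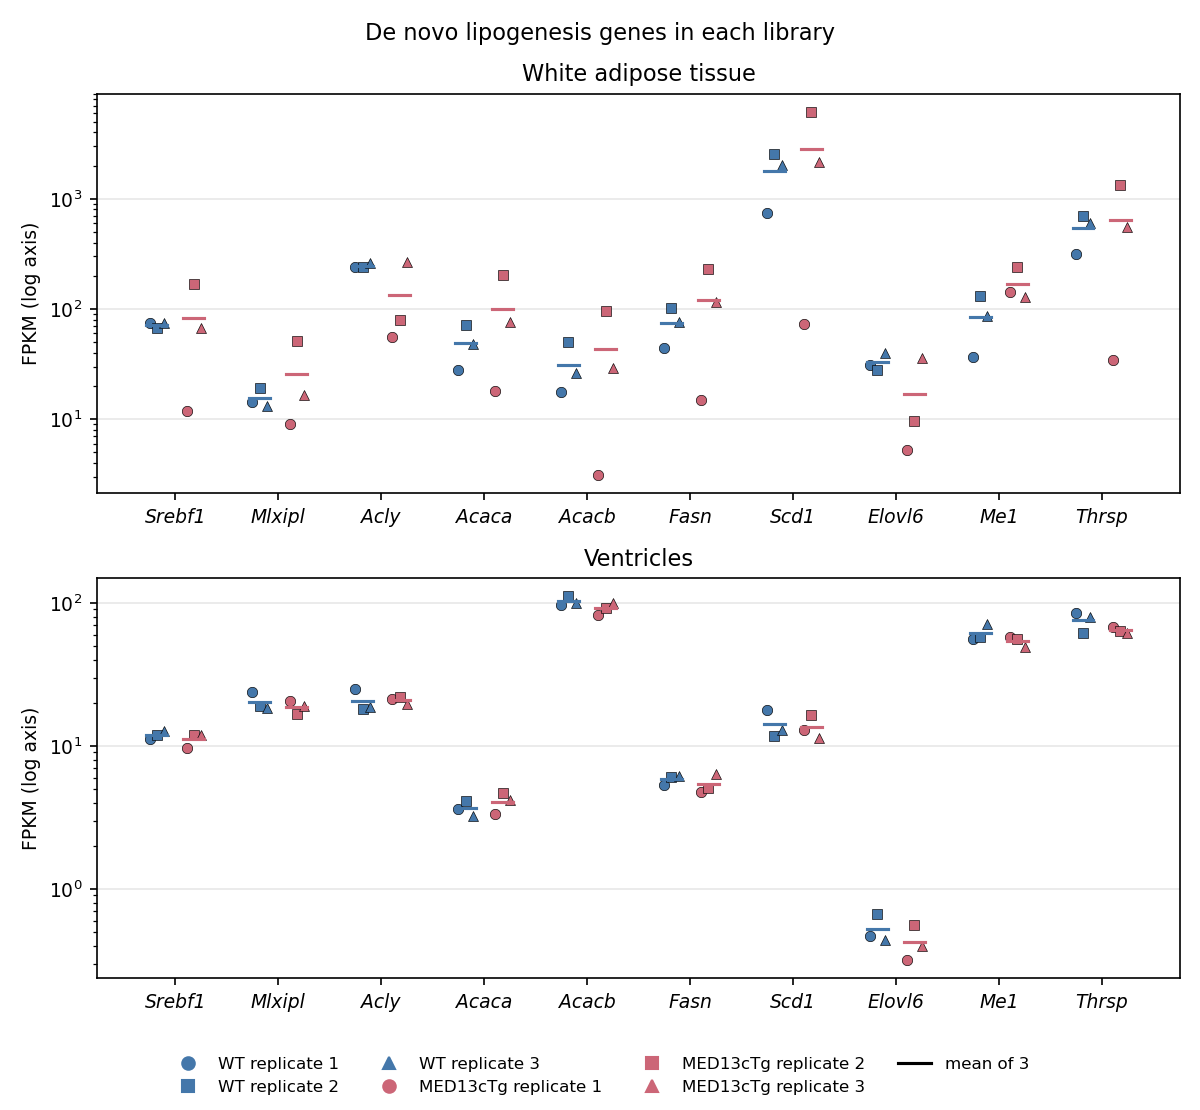
Expression of the 10 lipogenesis genes in each of the 12 libraries, in FPKM on a log axis, with 1 panel per tissue. Each gene has points for the 3 WT and 3 MED13cTg mice and a line at the mean of each genotype. In WAT the MED13cTg points scatter widely on both sides of the WT points, from 72.5 to 6174 FPKM for Scd1, whereas the ventricle points of both genotypes lie close together.

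Sorted by where MED13cTg 1 and 2 fell relative to WT, a sorting made after the values were seen, the 10 genes formed 3 groups. Srebf1, Mlxipl, Acaca, Acacb, Fasn, Scd1 and Thrsp, 7 of 10, were below every WT library in MED13cTg 1 and above every WT library in MED13cTg 2, a pattern shown by 20.4% of all genes tested. Acly and Elovl6 were below every WT library in both, as were 22.4% of all genes, and Me1 was above in both, as were 14.9%. Among the marker lists, 11 of 12 mature adipocyte markers, 5 of 6 macrophage markers and 5 of 6 stromal markers showed the first pattern, and 14 of 16 epididymis markers showed the second. Whether adipocyte and epididymal content accounts for either group was not tested. In MED13cTg 3, 7 of the 10 genes lay within the WT range, and Fasn, Acaca and Acly lay above it.

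**Figure D3:**
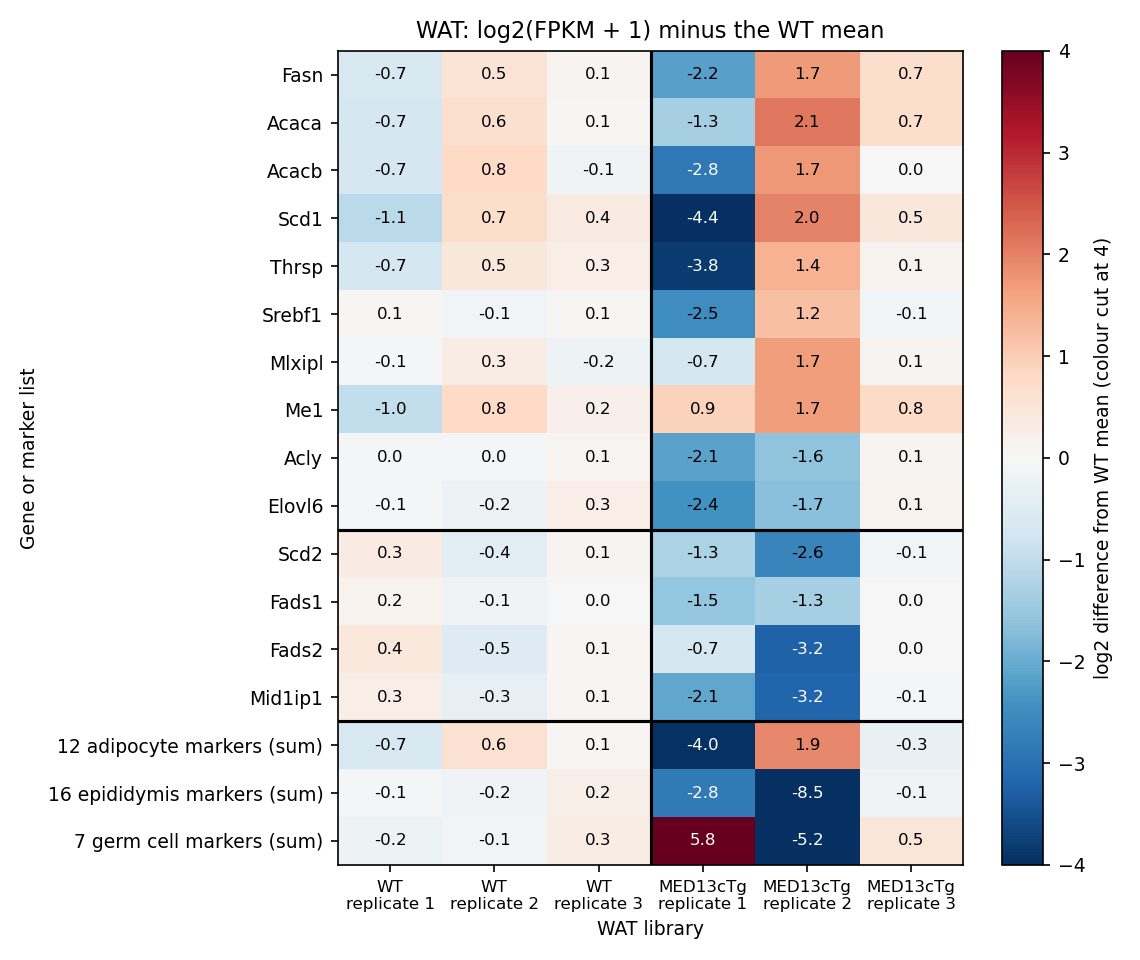
Log2 difference of each WAT library from the WT mean, on the log2(FPKM + 1) scale, for the 10 lipogenesis genes, the related genes Scd2, Fads1, Fads2 and Mid1ip1, and 3 marker sums, with blue for lower and red for higher. MED13cTg 1 is low and MED13cTg 2 high for 7 of the 10 genes and for the adipocyte markers, while Acly and Elovl6 are low in both and Me1 is high in both.

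Dividing each gene by the geometric mean of the 12 adipocyte markers in the same library restated these groups on a relative scale. Over the 3 WT mice, the ratio of highest to lowest library narrowed for 6 genes, from 2.31 to 1.15 for Fasn, 2.57 to 1.28 for Acaca, 2.81 to 1.53 for Acacb, 3.41 to 1.70 for Scd1, 3.51 to 1.75 for Me1 and 2.24 to 1.22 for Thrsp. It widened for Acly, Elovl6, Srebf1 and Mlxipl, from 1.10 to 1.99 for Acly and from 1.13 to 2.26 for Srebf1. The 6 genes that narrowed were lowest in WT 1 and highest in WT 2, as the adipocyte markers were. Their narrowing thus largely follows from that shared order and is no further evidence. Over all 6 WAT libraries the ratio fell from 85.2 to 3.93 for Scd1, from 38.8 to 2.50 for Thrsp and from 31.0 to 1.82 for Acacb, and it rose from 4.76 to 31.7 for Acly, from 7.52 to 25.3 for Elovl6 and from 6.47 to 27.1 for Me1. The ratio also rose for Mlxipl, from 5.76 to 7.96, although Mlxipl was low in MED13cTg 1 and high in MED13cTg 2. The adipocyte markers share the low MED13cTg 1 and high MED13cTg 2 by which these genes had been grouped. The changes over 6 libraries, Mlxipl apart, thus largely follow from that grouping and are no further evidence. With the adipocyte markers as a covariate in limma, still 0 of the 10 genes passed, and the median log2 fold change was -0.05.

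In ventricles, where the transgene is expressed, the comparison asked whether raised MED13 altered lipogenic expression in the heart itself. No lipogenesis gene passed the test there either, but here the 6 libraries were close together and the intervals were narrow. Of 9 genes tested, 0 had an adjusted p under 0.05, against 0.0556% of all genes (7 of 12589), and 0 had an unadjusted p under 0.05, against 4.73%. All 10 genes overlapped between genotypes. Log2 fold changes ran from -0.21 (Thrsp) to 0.12 (Acaca) with SEs of 0.11 to 0.19, 2 were above and 7 below 0, and their median was -0.10 against -0.01 over all genes. The adjusted p values were 0.966 to 0.980 (limma). Elovl6, with a mean under 1 FPKM, was not tested.

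The most abundant genes in the ventricles were Acacb, Thrsp and Me1. Acacb was 96.9, 111 and 99.8 in WT and 82.5, 92.6 and 99.4 FPKM in MED13cTg. Thrsp was 84.3, 62.0 and 79.7 in WT and 68.3, 63.7 and 61.7 FPKM in MED13cTg. Me1 was 55.6, 57.8 and 71.1 in WT and 57.4, 55.6 and 48.7 FPKM in MED13cTg. In each, the lowest library was MED13cTg and the highest WT, with the remaining libraries mixed. The log2 fold changes were -0.17 for Acacb (SE 0.12, 95% interval -0.46 to 0.13), -0.21 for Thrsp (SE 0.14, -0.55 to 0.13) and -0.18 for Me1 (SE 0.14, -0.51 to 0.14).

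The remaining genes lay as close. Srebf1 was 11.2 to 12.7 in WT and 9.72 to 11.99 FPKM in MED13cTg, and Mlxipl was 18.3 to 23.8 and 16.8 to 20.6 FPKM. Acly was 24.8, 18.1 and 18.7 in WT and 21.2, 22.1 and 19.7 FPKM in MED13cTg, with a log2 fold change of 0.04 (95% interval -0.30 to 0.38). Scd1 was 17.9, 11.6 and 13.0 in WT and 12.9, 16.4 and 11.4 FPKM in MED13cTg, with a log2 fold change of -0.05 (-0.51 to 0.41). Fasn was 5.34 to 6.13 in WT and 4.76 to 6.31 FPKM in MED13cTg, Acaca 3.23 to 4.10 and 3.34 to 4.65 FPKM, and Elovl6 0.436 to 0.665 and 0.319 to 0.561 FPKM. Acacb made up 96.1, 95.2 and 96.0% of the 2 carboxylase transcripts in MED13cTg ventricles.

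The ventricle libraries fell into 2 clusters over all genes, 1 with WT 2, WT 3 and MED13cTg 3 and the other with WT 1, MED13cTg 1 and MED13cTg 2. Within these clusters the median log2 difference of the 10 genes between genotypes was -0.07 and -0.12, beside -0.10 overall. Leaving out MED13cTg 1 brought the overall median to -0.03 and leaving out MED13cTg 2 to -0.14. Adipocyte markers in the ventricles summed to 3475 to 4201 in WT and 3291 to 4670 FPKM in MED13cTg, most of it Fabp4 (2770 to 4261 FPKM), a gene that capillary endothelium also expresses.

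**Figure D4:**
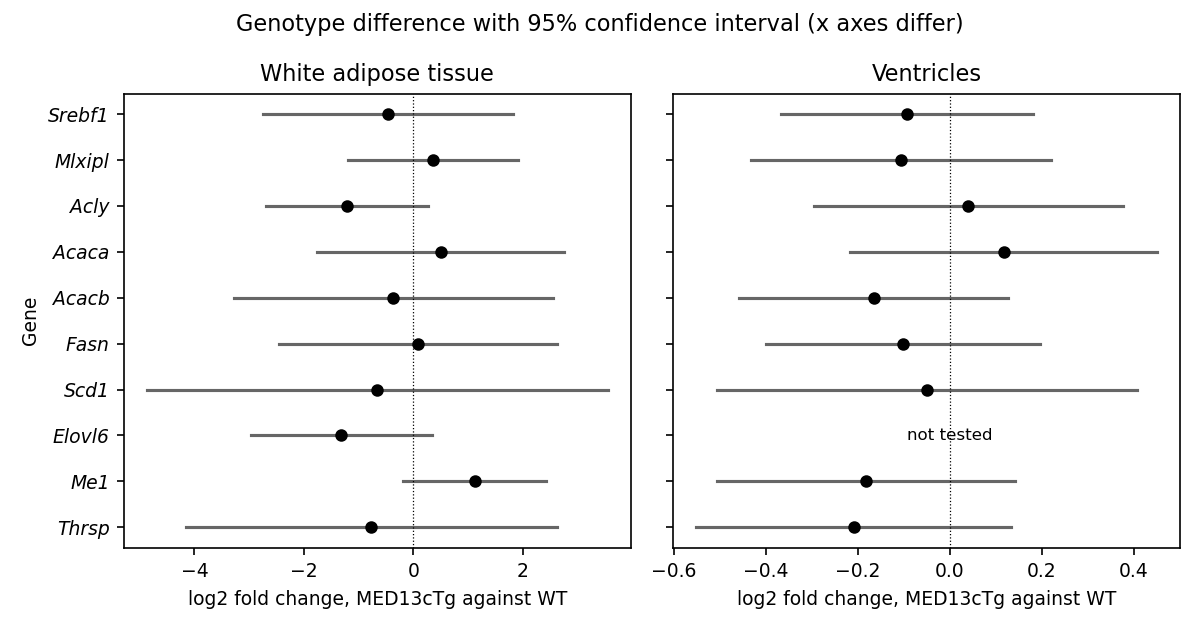
Log2 fold change of MED13cTg over WT for each lipogenesis gene in WAT and ventricles, with the 95% interval from limma on a separate scale for each tissue and Elovl6 not tested in ventricles. Every interval includes 0, and those in WAT, as wide as -4.86 to 3.55 for Scd1, are several times wider than those in ventricles.

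Paralogs of Scd1 and Thrsp did not all follow these genes. Scd2, a desaturase prominent in brain and in developing tissues, shares an entry with a microRNA gene, so its value is uncertain. It was 221, 131 and 192 FPKM in WT WAT and 73.1, 27.5 and 165 FPKM in MED13cTg WAT, low in MED13cTg 1 and 2 like Acly and Elovl6 and unlike Scd1. In ventricles it was 1626 FPKM in WT 3 but only 8.77 and 10.3 FPKM in the other WT libraries, with 7.17, 8.34 and 8.69 FPKM in MED13cTg, so WT 3 sets the size of the difference in group means, and the other WT libraries lay just above the MED13cTg libraries. Scd3 was 0.387 to 1.09 FPKM in WT WAT and Scd4 was 0.221 to 0.589 FPKM there, and Scd4, described as a cardiac desaturase, had ventricle levels of 8.68, 8.86 and 14.9 FPKM (WT) and 9.04, 8.52 and 4.15 FPKM (MED13cTg). Mid1ip1, the relative of Thrsp that activates acetyl-CoA carboxylase, was 247, 161 and 214 FPKM in WT WAT and 48.1, 21.6 and 193 FPKM in MED13cTg WAT, again below WT in MED13cTg 1 and 2, where Thrsp was low in the former and high in the latter. In ventricles Mid1ip1 was 69.0, 87.9 and 95.5 in WT and 107, 87.2 and 111 FPKM in MED13cTg.

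Around the pathway, 5 lists of related genes were counted, and no gene of any list passed the adjusted threshold in either tissue. In WAT the substrate and NADPH list (citrate carrier, malate dehydrogenase, pentose phosphate enzymes and others) had 10 genes tested, with 4 higher and 6 lower and a median log2 fold change of -0.22. Of these 10, 7 were below every WT library in MED13cTg 1 and above every WT library in MED13cTg 2, as were 20.4% of all genes. The list's median was 0.58 without MED13cTg 1, -1.0 without MED13cTg 2 and 0.03 without both. The desaturation and elongation list had 1 of 11 higher, 10 lower and a median of -0.55. Of its genes, 6 of 11 were below every WT library in both MED13cTg 1 and 2, as were 22.4% of all genes, with Fads1 and Fads2 among them, the desaturases of polyunsaturated fatty acids. The list's median was -0.38 without MED13cTg 1, -0.72 without MED13cTg 2 and -0.09 without both. Elovl4, which elongates very long chain fatty acids, was the list's 1 gene with every MED13cTg library below every WT library, at 19.7, 15.7 and 20.1 in WT and 3.17, 0.115 and 15.2 FPKM in MED13cTg.

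The control list, which holds SREBP processing factors, nuclear receptors, AMPK subunits and Mediator kinase genes, had 23 genes tested in WAT, with 10 higher, 13 lower and a median of -0.16, which was 0.18 without MED13cTg 1, -0.40 without MED13cTg 2 and -0.06 without both. For 3 of these genes all MED13cTg libraries exceeded all WT libraries and for 3 they lay below, against 4.88% and 7.8% of all genes. Mbtps1, the site-1 protease that cleaves SREBP precursors, was 115, 109 and 116 in WT and 49.0, 71.8 and 109 FPKM in MED13cTg. MED13cTg 3 lay just under WT 2, and the log2 fold change was -0.63, or -0.05 without MED13cTg 1 and 2. Nfya, a subunit of the CCAAT-binding factor, was 6.23, 6.41 and 7.07 in WT and 12.4, 8.86 and 8.42 FPKM in MED13cTg (log2 fold change 0.51, SE 0.23, adjusted p = 0.738, limma; 0.32 without MED13cTg 1 and 2). Prkab2, a regulatory AMPK subunit, was 3.97, 3.19 and 3.34 in WT and 9.50, 4.83 and 4.71 FPKM in MED13cTg.

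Triglyceride synthesis genes in WAT had a median of 0.50, with 10 of 14 higher and 4 lower, and the median was 0.70 without MED13cTg 1, -0.16 without MED13cTg 2 and -0.03 without both. Lpin3, a phosphatidate phosphatase, was the 1 gene of this list with an unadjusted p under 0.05, at 13.5, 12.4 and 11.6 in WT and 4.43, 5.26 and 10.6 FPKM in MED13cTg (log2 fold change -0.88, SE 0.34, unadjusted p = 0.0433, adjusted p = 0.738, limma; -0.21 without MED13cTg 1 and 2). Cholesterol synthesis genes, of which Hmgcs1 was listed at 0 in every library and not tested, had a median of -0.48, with 4 of 19 higher and 15 lower, 4 at an unadjusted p under 0.05 (1.25% of all genes) and 6 with every MED13cTg library below every WT library (7.8% of all genes). The median was -0.47 without MED13cTg 1, -0.34 without MED13cTg 2 and -0.18 without both. The 4 genes at an unadjusted p under 0.05 became 1 without MED13cTg 1 and 0 without MED13cTg 2. Fits with fewer libraries have less power, so these counts cannot tell a lost difference from a lost test. Nsdhl, a sterol dehydrogenase, was 71.2, 62.3 and 63.8 in WT and 15.9, 17.4 and 57.7 FPKM in MED13cTg, with a log2 fold change of -1.34 (SE 0.52, unadjusted p = 0.0426, adjusted p = 0.738, limma) that became -0.18 without MED13cTg 1 and 2. Fdps, which makes farnesyl diphosphate, was 115, 84.2 and 103 in WT and 40.1, 26.2 and 81.8 FPKM in MED13cTg. Sc4mol, a sterol methyl oxidase, was 54.7, 39.5 and 50.6 in WT and 23.8, 14.3 and 37.3 FPKM in MED13cTg. In all 3 MED13cTg 3 lay much nearer to WT than MED13cTg 1 and 2 did, and epididymis markers were low in the same 2 libraries; their part in these values was not tested.

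In ventricles the medians of the 5 lists were -0.03 for substrate and NADPH supply, -0.09 for desaturation and elongation, -0.05 for control, -0.12 for triglyceride synthesis and -0.03 for cholesterol synthesis. Among all genes tested in ventricles, 3.46% had every MED13cTg library above and 5.85% below every WT library; of 12 triglyceride synthesis genes tested these were 2 and 2. In that list, Agpat2, an acyltransferase that makes phosphatidic acid, was 88.6, 68.4 and 70.4 in WT and 139, 134 and 94.9 FPKM in MED13cTg, with no overlap. Its log2 fold change was 0.68 (SE 0.19, unadjusted p = 0.00920, adjusted p = 0.945, limma). Lpin1, a phosphatidate phosphatase that also acts as a coactivator of fatty acid oxidation genes, was 38.7, 45.3 and 40.0 in WT and 28.0, 25.1 and 33.1 FPKM in MED13cTg, also with no overlap and with a log2 fold change of -0.52 (SE 0.13, unadjusted p = 0.00689, adjusted p = 0.945, limma). Both were picked for having the largest folds without overlap in their list, and neither passed after adjustment over 12589 genes. Of all these genes, 4.73% had an unadjusted p under 0.05 by limma.

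Other genes without overlap in the ventricles were closer. Agpat6, of the triglyceride list, was 19.1, 20.1 and 22.3 in WT and 16.1, 16.1 and 18.9 FPKM in MED13cTg. Mvk, of the cholesterol list, was 7.78, 5.39 and 5.84 in WT and 4.77, 4.92 and 4.99 FPKM in MED13cTg. Their log2 fold changes were -0.25 (SE 0.11) and -0.30 (SE 0.14), each with an adjusted p of 0.966 by limma. Insig1, which retains SREBP in the endoplasmic reticulum, was 11.1, 14.6 and 11.5 in WT and 9.76, 10.6 and 9.51 FPKM in MED13cTg (log2 fold change -0.29, SE 0.13, adjusted p = 0.966, limma), and Mbtps2, the site-2 protease, was 4.34, 4.91 and 4.82 in WT and 5.63, 4.96 and 5.33 FPKM in MED13cTg. Me3, the mitochondrial NADP malic enzyme, was 25.2, 24.3 and 25.4 in WT and 21.8, 22.0 and 23.0 FPKM in MED13cTg. Me2, the mitochondrial NAD malic enzyme, was 4.80, 4.45 and 5.09 in WT and 4.19, 4.11 and 4.32 FPKM in MED13cTg. All 3 malic enzymes thus had a lower mean in MED13cTg ventricles, the mitochondrial 2 without overlap and Me1 with it, and none passed the test.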

How the data were processed

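RNA of WAT and ventricles was extracted with Trizol and made into TruSeq libraries. The authors aligned reads with TopHat (mm9, per the labels' processing notes) and estimated gene expression with Cufflinks at default settings, and deposited FPKM in 1 table per tissue; tool versions are not given in the sources used here. FPKM does not correct for the cells that make up a sample, and absolute depth is unknown. From values under 0.15 FPKM, fragments relative to WT 1 were 0.703 to 0.935 in the other WAT libraries, lowest in MED13cTg 1 and 2, and 0.907 to 1.02 in the other ventricle libraries. The deposited means and fold columns and 1 unnamed column were not used. Entries that join several symbols number 341 per table, and their values are uncertain.

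Genes averaging 1 FPKM or more across a tissue's 6 libraries were compared with limma 3.58.1 (R 4.3.3; lmFit, eBayes with trend) on log2(FPKM + 1), each tissue apart, with no covariate and Benjamini-Hochberg adjustment over all genes at 0.05; folds on this scale understate changes of low genes. The steps were tested on simulated data in which both genotypes had the WT spread. The wider spread of the MED13cTg WAT libraries was not covered. Other values came from Python 3.11.15, numpy 2.4.6 and pandas 2.3.3. The genes, lists and comparisons were chosen with earlier results of these data known. Named beside the 10 genes are, per list and tissue, up to 3 genes with the largest fold change among those without overlap, the paralogs Scd2, Scd3, Scd4 and Mid1ip1, and Med13; other names were chosen after their values were seen. Brown adipocyte markers summed to 2.49 to 11.3 FPKM in WAT and, through Cidea, to 40.1 to 64.9 FPKM in ventricles, cardiac markers to 41.5 to 63.0 FPKM in WAT, macrophage markers to 56.3 to 341 and 201 to 333 FPKM and stromal markers to 195 to 1668 and 565 to 839 FPKM in WAT and ventricles, and epididymis and germ cell markers in ventricles to 46.0 to 110 and 8.20 to 24.8 FPKM.

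Replicate numbers come from the labels. In WAT, deviations from the group means of same-numbered libraries correlated at 0.347, 0.304 and 0.144, so the number was also fitted as a block. Differently numbered libraries correlated at -0.417 to 0.168, and no label says what a number shares. Alternatives were a pseudocount of 0.1, no filter, a filter at 5 FPKM, median-of-ratios and quantile scaling, no trend, array weights, the replicate block, adipocyte markers or (ventricles) library cluster as a covariate, each library left out, and, added after seeing the data, MED13cTg WAT 1 and 2 both left out, and the WAT lists and their named genes without MED13cTg 1, 2 or both.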

Additional observations from a re-analysis of the deposited data

Results flagged for a closer look

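Me1, cytosolic malic enzyme, had opposite directions in the 2 tissues. In WAT the ratio of MED13cTg to WT means was 2.01 and every MED13cTg library lay above the WT mean, whereas in ventricles the ratio was 0.877 and every MED13cTg library lay below the WT mean. The difference between tissues was not tested, and the genotypes overlapped in both. MED13cTg WAT libraries 1 and 2 stood apart in their cell type markers. Relative to the geometric mean of the adipocyte markers, Me1 in WAT was 4.31, 0.159 and 0.514 in MED13cTg 1, 2 and 3 and 0.169 to 0.297 in WT. On that scale MED13cTg 2 lay below every WT library, and MED13cTg 1 and 3 lay above.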

How the results depend on the processing

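None of the 10 genes in WAT, and none of the 9 tested in ventricles, passed the adjusted threshold under any of the 16 alternatives in which it was tested (Elovl6 in none and Acaca not at the 5 FPKM filter in ventricles), and 140 of 160 WAT values and 133 of 143 ventricle values kept their direction. In WAT, the number of genes called, 2, became 1 without a filter, 0 with array weights, 0 with the replicate block, 0 with the adipocyte covariate and 19 with MED13cTg 1 and 2 both left out, where the lone MED13cTg library is assumed to vary like WT; leaving out single libraries gave 1 to 5. The block changed no other WAT call. In ventricles, where same-numbered libraries correlated at 0.0855, -0.192 and 0.140 and did not pair, the 7 genes called became 31 without a filter, 3 with the 5 FPKM filter, 15 with array weights, 4 with the replicate block and 4 to 9 without single libraries; the median of the lipogenesis genes, -0.10, became -0.072 by quantile normalization, -0.051 with array weights and -0.14 to -0.031 without single libraries. Directions turned in WAT with array weights for Acacb (0.40), Scd1 (0.37), Srebf1 (0.15) and Thrsp (0.10), with the adipocyte covariate for Acacb (0.021), and without both MED13cTg 1 and 2 for Acacb (0.029), Acly (0.10), Scd1 (0.47), Elovl6 (0.15) and Thrsp (0.13). Without single libraries, log2 fold changes ranged from -0.73 to 1.21 for Fasn, -0.31 to 1.41 for Acaca, -1.41 to 0.88 for Acacb, -1.97 to 1.22 for Scd1, -1.30 to 0.55 for Srebf1, -0.31 to 0.89 for Mlxipl, -1.85 to 0.77 for Thrsp, -1.87 to -0.76 for Acly, -2.04 to -0.76 for Elovl6 and 0.62 to 1.51 for Me1. In ventricles they turned with array weights for Acaca (-0.051), Scd1 (0.13), Mlxipl (0.025) and Thrsp (0.0093), with the cluster covariate for Acly (-0.050), and without single libraries for Scd1 (-0.18 to 0.12), Mlxipl (-0.17 to 0.0070) and Acly (-0.040 to 0.18). In WAT without both MED13cTg 1 and 2, log2 fold changes were 0.71 for Fasn, 0.70 for Acaca, -0.10 for Srebf1 and 0.10 for Mlxipl. The median over all WAT genes was 0.01, 0.07 by median-of-ratios and -0.06 by quantile scaling. The cause of these shifts was not tested. The 8 other genes named by the rule in WAT and the 5 lists kept 0 calls without MED13cTg 1 or without MED13cTg 2. Those fits had fewer libraries and so less power. With 3 mice per group, differences of many fold in WAT could go undetected for genes as variable as Scd1.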
